A study of Homo sapiens with 4 samples.

Results

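Long noncoding RNAs were followed across their 3′ ends in nuclear RNA of A549 cells, an established human lung tumor line. UV+ cells had received UV at 254 nm and 40 J/m2 and recovered for 16 h, and UV− cells were not irradiated; each condition had 2 libraries, described as biological replicates, and both conditions came from the same line. For each gene, reads were counted in the 500 nt before the polyadenylation site (PAS) at the gene's end, here the upstream window, and in the 500 nt after it, the downstream window. The 324 long noncoding rows studied here are those of the 4208 table rows whose RefSeq accession is noncoding (NR) and whose gene spans at least 500 nt; 3789 rows are protein-coding (NM) and 92 are shorter NR rows. By symbol, 115 were LINC or LOC genes, 94 were antisense RNAs, 12 were the hosts SNHG and GAS5, 36 were pseudogenes and 67 were others. Their spans ran between 561 and 527942 nt, with a median of 5602 nt, against a median of 21987 nt for NM rows.

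Long noncoding RNAs are transcribed by RNA polymerase II, and most are capped, spliced and, like mRNAs, cleaved and polyadenylated at a PAS marked by a hexamer such as AATAAA. Many stay on chromatin or in the nucleus, many begin next to a coding promoter and run away from it, and many are quickly degraded. Hosts of small nucleolar RNAs carry snoRNAs in their introns, and their spliced RNAs are often removed by nonsense-mediated decay. Reads in the downstream window come from RNA that was not cleaved at the PAS, unless another transcript runs there, so the ratio of downstream to upstream reads measures uncleaved RNA relative to all RNA at that end.

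The 3′ ends of the RNAs on which the results below turn are given here because the upstream and downstream windows meet at their last base. Each is the last 50 nt of the gene as the table places it, read from the GRCh37 (hg19) genome on the gene's own strand, 5′ to 3′, with the AATAAA, or where there was none the ATTAAA, nearest the end in capitals. For RNAs that were higher in UV+ upstream, these are the ends of LINC00324 (chr17:8123948-8123997, minus strand), LINC01021 (chr5:27496459-27496508, plus), TP53TG1 (chr7:86954664-86954713, minus), LINC00657 (chr20:34633540-34633589, minus), NIPBL-AS1 (chr5:36871463-36871512, minus), SNHG16 (chr17:74561381-74561430, plus) and SNHG5 (chr6:86386725-86386774, minus).
LINC00324: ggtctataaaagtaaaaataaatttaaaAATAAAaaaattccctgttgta
LINC01021: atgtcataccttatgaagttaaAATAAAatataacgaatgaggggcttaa
TP53TG1: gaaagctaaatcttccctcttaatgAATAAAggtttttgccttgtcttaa
LINC00657: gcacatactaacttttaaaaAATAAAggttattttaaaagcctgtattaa
NIPBL-AS1: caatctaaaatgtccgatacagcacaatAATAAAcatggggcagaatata
SNHG16: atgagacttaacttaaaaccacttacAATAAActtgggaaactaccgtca
SNHG5: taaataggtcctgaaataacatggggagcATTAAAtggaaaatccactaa
The ends of RNAs that were lower upstream, or that stood out for their downstream reads, are those of LINC00472 (chr6:72117567-72117616, minus), LINC00673 (chr17:70399463-70399512, minus), LINC00473 (chr6:166337536-166337585, minus), OIP5-AS1 (chr15:41591746-41591795, plus), ENO1-AS1 (chr1:8939894-8939943, plus) and LENG8-AS1 (chr19:54955994-54956043, minus), of which the last 4 hold neither hexamer.
LINC00472: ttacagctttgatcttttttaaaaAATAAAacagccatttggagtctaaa
LINC00673: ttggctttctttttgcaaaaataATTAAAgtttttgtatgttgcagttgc
LINC00473: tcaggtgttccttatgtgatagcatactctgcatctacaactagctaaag
OIP5-AS1: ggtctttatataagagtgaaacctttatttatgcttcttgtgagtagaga
ENO1-AS1: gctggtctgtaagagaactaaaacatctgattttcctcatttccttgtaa
LENG8-AS1: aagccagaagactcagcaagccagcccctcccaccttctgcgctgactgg

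Searched on the gene's strand only, 162 of the 324 ends (50.0%) held AATAAA, 45 (13.9%) held ATTAAA without AATAAA, and 117 (36.1%) held neither. Over all 4205 rows with a position, 58.0% held AATAAA, 14.7% held ATTAAA and 27.2% held neither. Among the classes, AATAAA was in the ends of 9 of 12 snoRNA hosts, 22 of 36 pseudogenes, 60 of 115 LINC or LOC genes and 37 of 94 antisense RNAs. These are matches to letters in a fixed window, not mapped cleavage sites.

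Values are normalized reads, that is reads divided by the size factor of the library. The table held 481798 and 389697 upstream reads in the UV+ libraries and 262657 and 453821 in the UV− libraries. The long noncoding rows took 2.68% and 2.91% of the upstream reads in the UV+ libraries, against 2.06% and 2.04% in the UV− libraries, and their median upstream count was between 7.5 and 14 reads, so single rows rest on few reads. Every row of the table had at least 10 reads, summed over the libraries of 1 condition, in each window. For 80 long noncoding rows that minimum was met upstream only in UV+ and for 46 only in UV−, so part of the rows were in the table because of the condition in which they were high. Of the markers of A549 identity looked for, KRT18, ALDH1A1, AKR1B10, AKR1C1 and NQO1 had rows, with between 210 and 7580 normalized upstream reads in each library.

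Upstream of the PAS, 58 of the 324 long noncoding rows were higher in UV+ and 32 were lower (limma on log2 of normalized reads plus 1, Benjamini-Hochberg adjusted p under 0.05 over all 4208 rows). Of all 4208 rows, 11.7% were called higher and 20.7% lower, against 17.9% and 9.88% of the long noncoding rows. Their median log2 fold change, UV+ over UV−, was 0.33, against −0.24 over all rows and −0.29 over NM rows. Called changes ran between 0.61 and 6.03 for rows higher in UV+ and between −3.67 and −1.08 for rows lower in UV+. The calls depended on both UV− libraries: without UV− library 1, 1 row was called higher and 0 lower, and without UV− library 2 the counts were again 1 and 0, while all 90 rows kept their direction. Without UV+ library 2 the counts were 33 and 14, and DESeq2 called 35 higher and 9 lower. Rows that met the read minimum only in UV+ hold 18 of the 58 rows called higher and rows that met it only in UV− 14 of the 32 called lower, which leaves 40 and 18 among the 198 rows that met it in both conditions.

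By class, the snoRNA hosts stood at one end, with 6 of 12 rows higher in UV+ and 0 lower, and a median log2 fold change of 0.88. Antisense RNAs were called higher in 16 and lower in 5 of 94 rows (median 0.40), the other RNAs in 14 and 6 of 67 (median 0.22), and pseudogenes in 4 and 3 of 36 (median 0.17). LINC or LOC genes were called as often higher as lower, with 18 of 115 in each direction (median 0.24). No difference between classes was tested.

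**Figure D1:**
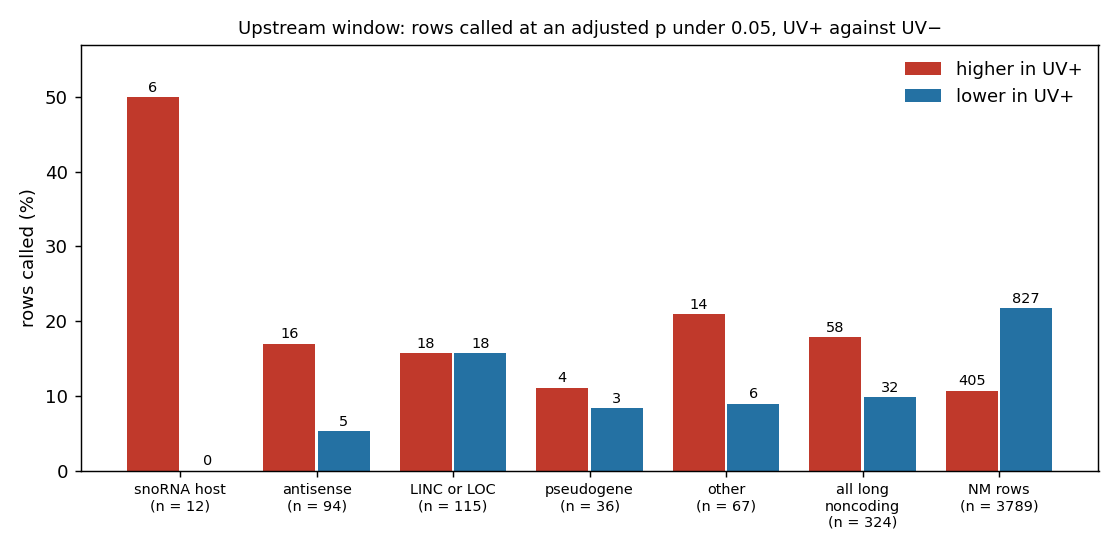
Share of rows called in the upstream window (y axis, % of rows), higher in UV+ (red) or lower in UV+ (blue), for the 5 symbol classes of long noncoding rows, for all 324 of them and for the 3789 NM rows, with the number called above each bar. Of the snoRNA hosts 6 of 12 were higher and 0 lower, whereas NM rows were more often lower (827) than higher (405).

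LINC00324 was higher in UV+ upstream and was the only long noncoding row still called there when any single library was left out. This RNA, encoded on chromosome 17 with a span of 3414 nt, had 697 and 606 normalized reads in the UV+ libraries, against 6.96 and 11.5 in the UV− libraries. The conditions were far apart, with a fold of 70.7 between means (log2 fold change 6.03 ± 0.29, SE, with an adjusted p of 8.5e-08 in limma). It was the LINC or LOC row with the most upstream reads on average, although both UV− values were low.

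NIPBL-AS1, which is transcribed away from the gene of the cohesin loader NIPBL, had 332 and 400 normalized upstream reads in the UV+ libraries, against 47.3 and 62.3 in the UV− libraries. Its log2 fold change was 2.72 ± 0.25 (adjusted p 8.6e-06, limma). ASH1L-AS1 had 91.1 and 64.8 normalized reads in UV+, against 16.7 and 14.8 in UV− (log2 fold change 2.22, adjusted p 0.00062, limma). LOC100506548 had 94.3 and 83.2 in UV+, against 23.7 and 19.7 in UV− (1.99, adjusted p 0.00062, limma). All 3 had both UV+ libraries above both UV− libraries, which the rule that named these rows required.

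Other rows that the smallest p-values singled out were NKILA, NRAV, FLJ13224 and RBM12B-AS1. NKILA, which binds the NF-κB complex and holds back its activation, had 52.0 and 55.1 normalized upstream reads in UV+, against 8.35 and 5.74 in UV− (log2 fold change 2.78 ± 0.46, adjusted p 0.00062, limma). NRAV, described as a brake on antiviral gene expression, had 135 and 126 in UV+, against 29.2 and 32.0 in UV− (2.06 ± 0.28, adjusted p 0.00021, limma). Replicates of NRAV differed by far less than the conditions did, which a choice by small p-values favors. FLJ13224 had 42.3 and 21.3 normalized reads in UV+ and no read in either UV− library, so its mean was at least 9.58-fold higher in UV+, with a floor of 3 reads per UV− library. RBM12B-AS1, antisense to the gene of an RNA-binding protein, had 22.8 and 38.7 in UV+, against 0 and 0.82 in UV− (log2 fold change 4.51 ± 0.76, adjusted p 0.00076, limma). FLJ13224 and RBM12B-AS1 thus met the read minimum upstream only in UV+, the condition in which they were high.

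RNAs linked to p53 or the DNA damage response were taken from a list of 23 symbols, of which 6 had rows and all 6 were long noncoding rows. The median upstream log2 fold change of the list was 1.75, against −0.24 over all rows. Upstream, 4 of the 6 rose, 0 fell and TUG1 and GAS5 did not pass the test, against 11.7% of all rows called higher and 20.7% lower. DESeq2 called the same number, and 0 were called without either UV− library. LINC01021, also known as PURPL and induced by p53, had 68.3 and 110 normalized reads in UV+, against 18.1 and 20.5 in UV− (log2 fold change 2.12 ± 0.36, adjusted p 0.00075, limma). TP53TG1, a p53 target gene, had 23.6 and 24.2 in UV+, against 0 and 2.46 in UV− (3.74 ± 0.79, adjusted p 0.0035, limma). These 2 differ in depth: the UV− values of TP53TG1 rest on 0 and 3 reads, whereas LINC01021 had reads in every library. TP53TG1 thus met the read minimum upstream only in UV+, the condition in which it was high.

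MIR22HG, the host of miR-22, had 176 and 196 normalized upstream reads in UV+, against 51.5 and 23.0 in UV− (log2 fold change 2.40 ± 0.34, adjusted p 0.00026, limma). LINC00657, now named NORAD and known for binding PUMILIO proteins, had 197 and 289 in UV+, against 72.4 and 112 in UV− (1.39 ± 0.28, adjusted p 0.0025, limma). In both RNAs the lowest UV+ value was well above the highest UV− value. Upstream, the conditions did not overlap in 69.4% of all rows. TUG1, which the table lists as noncoding but RefSeq now annotates as coding, had 16.3 and 31.0 in UV+, against 18.1 and 13.9 in UV−, and its conditions overlapped.

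The snoRNA hosts were described with a list of 37 symbols, of which 16 had rows. Upstream, 9 of the 16 rose and 0 fell, against 11.7% of all rows called higher and 20.7% lower, and downstream 7 rose and 0 fell, against 11.7% and 9.41% of all rows. DESeq2 called 5 of the 16 higher upstream, without SNHG10, SNHG12, DANCR and ZFAS1, and 4 downstream, without GAS5, SNHG17 and SNHG21. Upstream, 5 were called without UV+ library 1, 3 without UV+ library 2 or in limma without the variance trend, and 0 without either UV− library, and downstream 2 were called without the trend and 0 with any 1 library left out. The median upstream log2 fold change of the list was 0.89. SNHG5, which hosts box C/D snoRNAs, had 168 and 90.9 normalized upstream reads in UV+, against 41.8 and 26.2 in UV− (log2 fold change 1.87 ± 0.35, adjusted p 0.0017, limma). SNHG21 had 52.9 and 56.1 in UV+, against 15.3 and 17.2 in UV− (1.69, adjusted p 0.0047, limma), and SNHG16 had 102 and 119 in UV+, against 39.0 and 43.5 in UV− (1.40, adjusted p 0.0025, limma). The conditions did not overlap in any of these 3 hosts, nor did they upstream in 69.4% of all rows.

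SNHG15 (log2 fold change 1.65), SNHG10 (1.57), EPB41L4A-AS1 (1.24), SNHG12 (1.04), DANCR (0.99) and ZFAS1 (0.79) made up the rest of the upstream calls. EPB41L4A-AS1, which hosts SNORA13, had 203 and 189 normalized reads in UV+, against 90.5 and 74.7 in UV−. The hosts that did not pass included the 2 most abundant of the SNHG class: SNHG1 had 136.6 and 191.5 in UV+, against 121.1 and 137.8 in UV− (adjusted p 0.33, limma), and SNHG6 had 193 and 147 in UV+, against 106 and 111 in UV− (adjusted p 0.06, limma). SNHG17 passed downstream only, where it had 52.0 and 39.7 in UV+, against 11.1 and 19.7 in UV− (log2 fold change 1.55, adjusted p 0.028, limma), and LRRC75A-AS1, now SNHG29, passed in neither window. SNHG7 had 87.8 and 82.2 in UV+, against 84.9 and 119 in UV−, and SNHG8 had 82.1 and 60.0 in UV+, against 75.2 and 77.1 in UV−. For SNHG7 and SNHG8 the log2 fold changes were −0.24 ± 0.27 and −0.12 ± 0.28.

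GAS5, a host whose spliced RNA is removed by nonsense-mediated decay, was among the hosts whose downstream window passed while the upstream window did not. Upstream it had 38.2 and 64.8 normalized reads in UV+, against 30.6 and 36.1 in UV− (adjusted p 0.24, limma). Downstream it had 128 and 96.7 in UV+, against 62.6 and 54.1 in UV− (log2 fold change 0.93 ± 0.28, adjusted p 0.04, limma). GAS5, SNHG5 and SNHG10 each had more reads after the PAS than before it in all 4 libraries, and SNHG10 had 177 and 123 downstream in UV+, against 30.6 and 27.1 in UV−. The libraries were made with a kit that keeps strand, but whether the read counting used it is not given in the sources used here, and exons on the other strand cover all 500 nt of the downstream window of GAS5, SNHG12, SNHG6 and SNHG7 and both windows of SNHG16 and SNHG21. A mature small RNA, SNORD99, lies in the upstream window of SNHG12, and SCARNA13 in that of SNHG10.

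**Figure D2:**
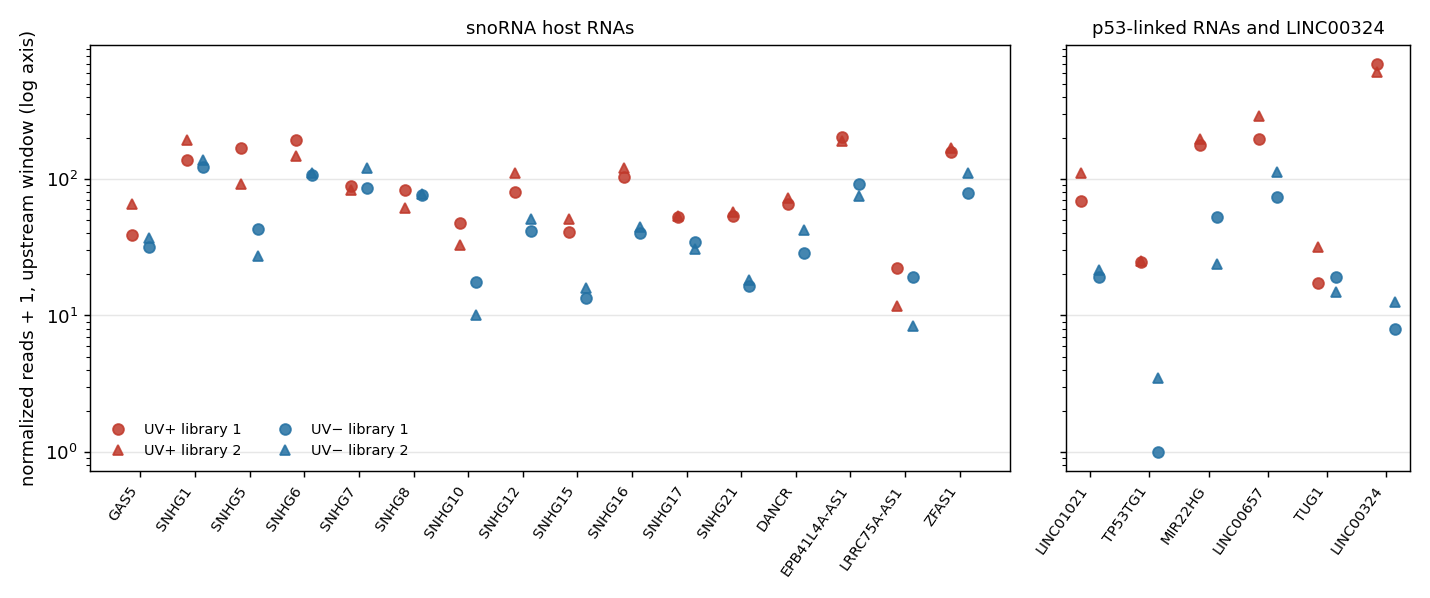
Normalized reads plus 1 in the upstream window (log axis) in each library, UV+ in red at the left and UV− in blue at the right of each gene, for the 16 snoRNA hosts with a row, for 5 RNAs linked to p53 and for LINC00324. LINC00324 sits at 697 and 606 in UV+ and at 6.96 and 11.5 in UV− before 1 was added, and 9 hosts have a called rise, while SNHG7 and SNHG8 overlap between conditions.

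The 32 rows that were lower in UV+ upstream were mostly long genes. LINC00673, with a span of 189481 nt, had 3.25 and 3.87 normalized reads in UV+, against 48.7 and 66.5 in UV−, a 16.2-fold higher mean in UV− (log2 fold change −3.67 ± 0.51, adjusted p 0.00021, limma). LINC00673 met the read minimum upstream only in UV−, the condition in which it was high. TARID, an RNA of 386755 nt antisense to TCF21, had 5.69 and 4.84 in UV+, against 27.8 and 31.2 in UV− (−2.28 ± 0.54, adjusted p 0.0067, limma). CASC15, the longest row at 527942 nt, had 8.95 and 2.90 in UV+, against 23.7 and 27.1 in UV− (−2.08 ± 0.61, adjusted p 0.02, limma). Both UV+ libraries lay below both UV− libraries in all 3, which the rule that named LINC00673 and TARID required. Each UV+ value rests on fewer than 10 normalized reads.

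LINC00473, an RNA known to be driven by cAMP signaling and high in lung tumors that lack LKB1, had 127 and 98.7 normalized reads in UV+, against 262 and 217 in UV− (log2 fold change −1.08 ± 0.24, adjusted p 0.0043, limma). LINC00472 had 9.76 and 15.5 in UV+, against 62.6 and 41.8 in UV− (−1.97 ± 0.43, adjusted p 0.0043, limma). LOC100505817 had 39.0 and 55.1 in UV+, against 127 and 112 in UV− (−1.34 ± 0.29, adjusted p 0.0037, limma). LINC00473 was among the most abundant LINC or LOC rows, and its UV+ values were still near 100 normalized reads. LINC01000, LINC01184 and LINC01468 also fell, with log2 fold changes of −2.09, −1.79 and −1.27. CCDC144B, a row of 87816 nt with no more than 3 reads in either UV+ library, had a log2 fold change of −2.94. It thus met the read minimum upstream only in UV−, the condition in which it was high. LUCAT1 (lung cancer associated transcript 1) and LINC00993 fell by 1.82 and 1.29 on the log2 scale.

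Of the nuclear-retained RNAs on a list of 14 symbols, 3 had rows, of which OIP5-AS1 fell and MALAT1 and TUG1 did not pass. Upstream, 11.7% of all rows were called higher and 20.7% lower, so 1 fall among 3 rows does not set the list apart. OIP5-AS1 was not called in DESeq2 or with any 1 library left out. Symbols were matched as written, so LINC00657, which is on this list under its newer name NORAD, was not counted among the 3. It rose upstream (log2 fold change 1.39), as described above. OIP5-AS1, known as cyrano in other vertebrates, had 8.95 and 11.6 normalized upstream reads in UV+, against 30.6 and 38.5 in UV− (log2 fold change −1.66 ± 0.46, adjusted p 0.016, limma). Downstream of its PAS it had more reads in every library, 55.3 and 60.0 in UV+, against 100 and 86.1 in UV−. MALAT1, whose 3′ end is made by RNase P and not by polyadenylation, had 47.2 and 115 upstream in UV+, against 114 and 115 in UV−, so only UV+ library 1 stood below the rest (adjusted p 0.18, limma). Both windows of MALAT1 are covered by exons of the opposite strand.

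The upstream change differed with the span of the gene. Of 97 rows of 500 to 2500 nt, 22 (22.7%) were higher in UV+ and 3 (3.09%) lower, with a median log2 fold change of 0.78. Of the NM rows in that class 34.5% were higher and 8.47% lower. Of 111 rows of 2500 to 10000 nt, 25 (22.5%) were higher and 7 (6.31%) lower (median 0.42), against 22.7% and 4.91% of NM rows. Of 68 rows of 10000 to 30000 nt, 11 (16.2%) were higher and 9 (13.2%) lower (median 0.06), against 9.61% and 8.33% of NM rows. Of 48 rows of at least 30000 nt, 0 were higher and 13 (27.1%) lower (median −1.0), against 2.14% and 42.0% of NM rows. Over these 4 span classes the medians of NM rows were 0.61, 0.48, −0.01 and −1.24. The shortest class held 97 of 324 long noncoding rows and 177 of 3789 NM rows, and the part of span in the difference between the 2 kinds of row was not tested. The Spearman correlation between span and upstream log2 fold change was −0.29 across the 324 rows and −0.58 across NM rows, as a description over genes that share the same 4 libraries.

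**Figure D3:**
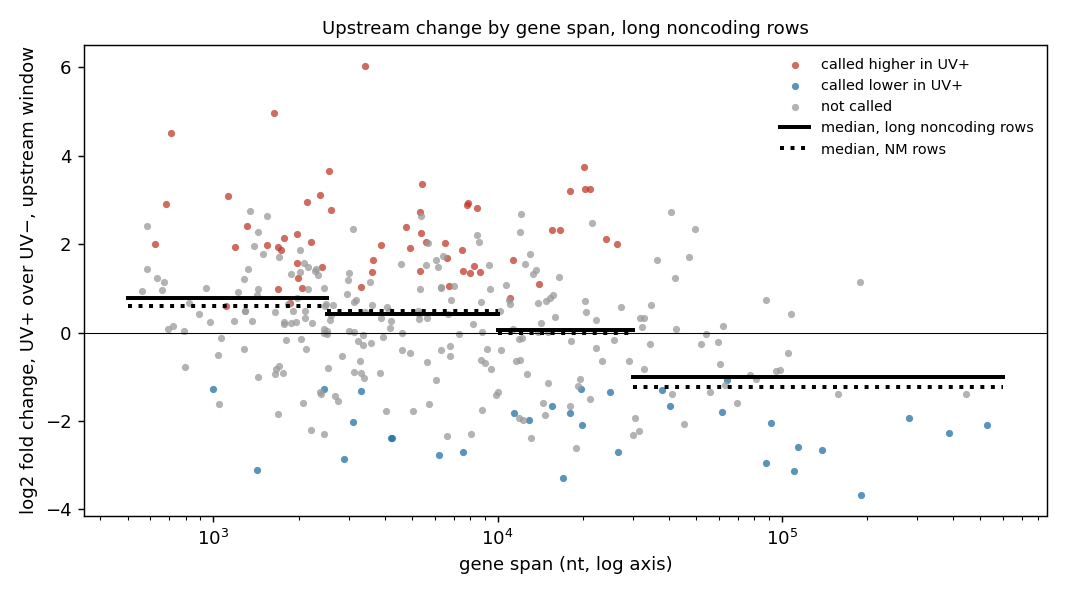
Upstream log2 fold change, UV+ over UV− (y axis), against gene span in nt (log x axis) for the 324 long noncoding rows, colored red or blue where called higher or lower in UV+. Solid lines are their medians per span class and dotted lines those of NM rows: 0.78 and 0.61 for the shortest class, −1.0 and −1.24 for the longest, where 0 rows were called higher.

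The rows were also divided by the neighboring gene. In 108 of the 324 rows, a coding gene on the other strand starts within 1 kb of the start of the noncoding gene. In that set 17 rows (15.7%) were higher in UV+ and 3 (2.78%) lower upstream, with a median log2 fold change of 0.58. Among the other 216 rows, 41 (19.0%) were higher and 29 (13.4%) lower, with a median of 0.05. The shares that were higher lay close together, and the share that was lower was smaller beside a coding start. The 108 rows had a median span of 3474 nt and the 216 rows one of 7160 nt, and the difference between the sets, and the part of span in it, was not tested. For 37 antisense RNAs the gene named in the symbol had a row of its own. In those pairs 9 antisense RNAs (24.3%) rose and 0 fell, against 11.7% of all rows called higher and 20.7% lower. Among the 9, RBM12B-AS1, RBM26-AS1 and ZSCAN16-AS1 met the read minimum upstream only in UV+, the condition in which they were high. Of the sense genes in the 37 pairs 1 (2.7%) rose and 7 (18.9%) fell, and the share that fell is near that of all rows. In 2 pairs an antisense RNA rose while its sense gene fell. Opposite-strand exons reach into the upstream window of 14 of the 37 antisense RNAs, 3 of them among the 9 that rose.

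HIF1A-AS2, antisense to the gene of the hypoxia factor HIF1A, was in such a pair, with 120 and 109 normalized upstream reads in UV+, against 64.0 and 50.0 in UV− (log2 fold change 1.01, adjusted p 0.013, limma). HIF1A itself had 208 and 167 in UV+, against 640 and 629 in UV− (−1.76, adjusted p 6.8e-05, limma). Conditions did not overlap in either row, which was so upstream for 69.4% of all rows. Exons of the opposite strand cover all 500 nt of the upstream window of HIF1A-AS2 and annotated exons of its own strand 0 nt, so with the strand use of the counting unknown its reads cannot be told from those of the other strand. Both genes were named after their values were seen. The other pair was EPB41L4A-AS1, described above, and EPB41L4A, which had 10.6 and 1.93 in UV+, against 25 and 22.1 in UV− (−2.08, adjusted p 0.034, limma).

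Pseudogenes included the most abundant row. PDIA3P1, a processed copy of the gene of the disulfide isomerase PDIA3, had 1106 and 1184 normalized upstream reads in UV+, against 832 and 998 in UV− (adjusted p 0.21, limma). DSTNP2, a copy of the gene of the actin-severing protein destrin, had 485 and 622 in UV+, against 314 and 413 in UV− (log2 fold change 0.61, adjusted p 0.0499, limma), which is just inside the threshold. Reads of such copies can be shared with the parent gene, so these values are uncertain. SBDSP1 and ZNF192P1 rose, with log2 fold changes of 1.35 and 2.88, as did KLRAP1 with 1.65, and GCSHP3, DPY19L1P1 and ZNF724P fell, with −1.28, −2.65 and −2.69. The falls of DPY19L1P1 and ZNF724P rest on at most 1 read per UV+ library, so both met the read minimum upstream only in UV−.

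Downstream of the PAS, 55 of the 324 long noncoding rows were higher in UV+ and 19 lower (limma, adjusted p under 0.05), that is 17.0% and 5.86%, against 11.7% and 9.41% of all rows. The median log2 fold change was 0.42, against 0.24 over all rows. Without UV+ library 1 the calls were 12 higher and 1 lower, without UV+ library 2 they were 12 and 0, without UV− library 1 they were 1 and 7, and without UV− library 2 they were 1 and 6. DESeq2 called 23 and 6 of the 193 rows it gave an adjusted p. The minimum of 10 reads was met downstream only in UV+ by 102 rows, which hold 30 of the 55 rows called higher, and only in UV− by 59, which hold 12 of the 19 called lower. Among the 163 rows that met it in both conditions, 25 were called higher and 7 lower.

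NIPBL-AS1 had the smallest p of the long noncoding rows downstream, with 123 and 153 normalized downstream reads in UV+, against 8.35 and 13.1 in UV− (log2 fold change 3.59 ± 0.35, adjusted p 0.00048, limma). RARA-AS1, antisense to the gene of the retinoic acid receptor alpha, had 60.2 and 64.8 in UV+, against 11.1 and 7.38 in UV− (2.65 ± 0.40, adjusted p 0.0033, limma). NKILA had 87.8 and 72.5 downstream in UV+, against 8.35 and 0 in UV− (4.72 ± 0.85, adjusted p 0.0076, limma). This window of NKILA met the read minimum only in UV+, the condition in which it was high. LOC389906 had 30.9 and 46.4 in UV+, against 4.17 and 5.74 in UV− (2.72, adjusted p 0.008, limma). Each of these RNAs had more reads in UV+ in the upstream window as well, though RARA-AS1 missed the threshold there (adjusted p 0.053, limma).

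LINC00472 showed the converse, with 43.9 and 28.1 normalized downstream reads in UV+, against 156 and 154 in UV− (log2 fold change −2.11 ± 0.30, adjusted p 0.0026, limma). LINC00993 had 21.1 and 38.7 in UV+, against 82.1 and 112 in UV− (−1.71, adjusted p 0.013, limma). Both genes had more reads after the PAS than before it in all 4 libraries. LINC00473, LOC100505817 and LUCAT1 also fell downstream, with log2 fold changes of −2.05, −1.55 and −2.0.

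The 2 windows of a row moved together. Of the 58 rows higher upstream, 32 (55.2%) were also higher downstream, which is 58.2% of the 55 called there, and of the 32 rows lower upstream 13 (40.6%) were also lower downstream, which is 68.4% of 19. No row was called in opposite directions in the 2 windows. The Spearman correlation of the upstream and downstream log2 fold changes was 0.77 across the 324 rows and 0.69 across NM rows; both windows come from the same libraries and size factors.

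The ratio of downstream to upstream reads asked whether reads after the PAS changed relative to reads before it at the same end. Among the long noncoding rows 14 were higher in UV+ and 11 lower at an unadjusted p under 0.05 (limma), that is 4.32% and 3.4%, against 10.9% and 2.69% of all rows. Of the 133 long noncoding rows at the read minimum in both windows of both conditions, 2 (1.5%) were higher and 0 lower. The shares of such NM rows were 5.92% and 0.513%. Most of these ratio calls thus lie in rows that met the minimum in only 1 condition in some window. At an adjusted p under 0.05, 0 long noncoding rows and 0 rows of the table passed in limma. The median change of the ratio, UV+ over UV− on the log2 scale, was 0.04 for the long noncoding rows, against 0.42 for NM rows and 0.38 for all rows. In edgeR these medians were 0.08, 0.46 and 0.40, and its unadjusted calls among the long noncoding rows were 8 higher and 5 lower. Without UV+ library 1 the calls were 26 higher and 37 lower, without UV+ library 2 they were 13 and 6, and without UV− library 2 they were 10 and 6.

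In each library, the median log2 ratio of the long noncoding rows was −0.37 and −0.40 in UV+, against −0.51 and −0.38 in UV−. The conditions overlapped, and their means differed by 0.06 (2-sided exact permutation test over libraries, p = 0.67, where 2 against 2 libraries cannot go below 0.33). The median of NM rows was −1.33 and −1.35 in UV+, against −1.74 and −1.82 in UV−, a difference of 0.44 (exact p = 0.33). The long noncoding median stood above the NM median by 0.96 and 0.95 in the UV+ libraries, against 1.22 and 1.44 in the UV− libraries, so the gap was 0.38 smaller in UV+ (exact p = 0.33, the smallest possible). Summed over rows, the downstream reads of the long noncoding rows were 55.4% and 49% of their upstream reads in UV+, against 54.4% and 49.5% in UV−, while those of NM rows were 19.5% and 19.5% in UV+, against 18% and 16.7% in UV−.

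More reads after than before the PAS were found in 124 long noncoding rows (38.3%) in UV+ and 107 (33.0%) in UV−, by the condition means, against 21.5% and 13.6% of NM rows. In such rows the ratio is not a share of uncleaved RNA. The level of reads and the features of the ends bear on these values, so the ratio was also taken within strata. Among rows with a mean of at least 10 normalized reads in both windows, its median change was 0.04 for 106 long noncoding rows, against 0.33 for 1386 NM rows. Among rows at the read minimum in both windows of both conditions it was −0.06 for 133 long noncoding rows, against 0.31 for 1756 NM rows. Over the 4 span classes it was 0.08, 0.03, 0.07 and 0.13 for long noncoding rows, against 0.36, 0.40, 0.58 and 0.30 for NM rows. For ends with AATAAA it was 0.01, against 0.45, for ends with ATTAAA 0.30, against 0.42, and for ends with neither 0.03, against 0.38. In 107 long noncoding rows, annotated exons on the same strand cover at least 250 nt of the downstream window; there the median change was −0.06, against 0.22 for such NM rows, and in the other 217 it was 0.08, against 0.54.

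**Figure D4:**
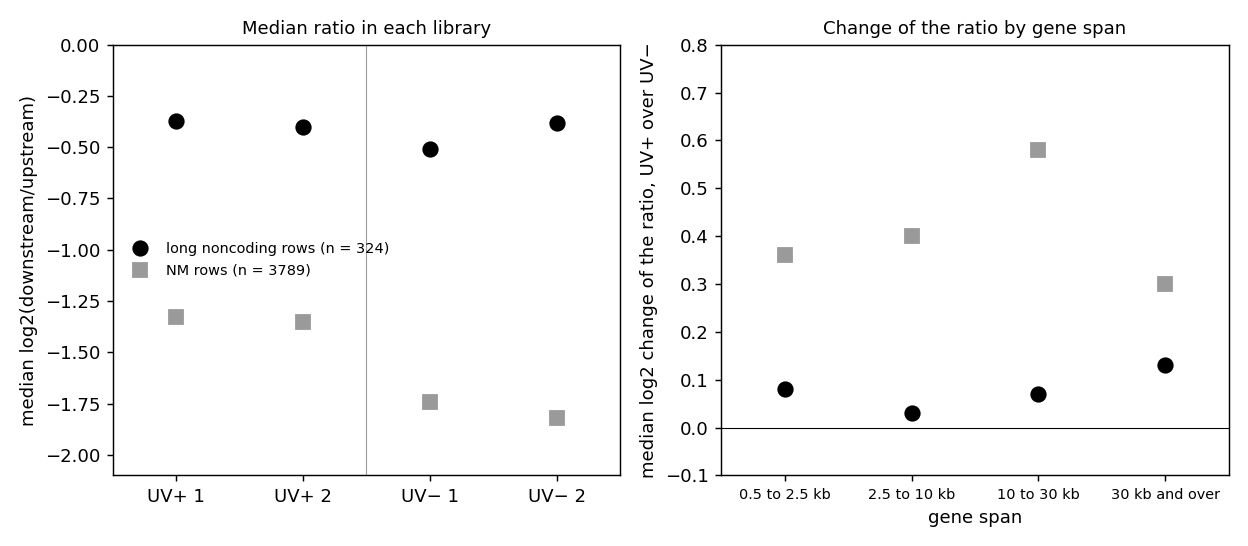
Left, median log2 ratio of downstream to upstream normalized reads (plus 1) in each library, for long noncoding rows (black circles) and NM rows (grey squares). Right, the median log2 change of that ratio, UV+ over UV−, by gene span: between 0.03 and 0.13 for long noncoding rows and between 0.30 and 0.58 for NM rows.

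ENO1-AS1, antisense to the gene of the glycolytic enzyme enolase 1, had the largest rise of the ratio among the long noncoding rows. It had 9.76 and 13.5 normalized downstream reads in UV+ and none in either UV− library, whereas upstream it had 0.81 and 2.90 in UV+, against 6.96 and 7.38 in UV−. The log2 change of its ratio was 5.26 ± 0.68 (unadjusted p 0.00013, adjusted p 0.17, limma). ENO1-AS1 met the read minimum upstream only in UV− and downstream only in UV+. Each window thus entered the table through the condition in which it was high, so this p-value gives no independent support. In LOC101928100 upstream reads were 20.3 and 13.5 in UV+, against 11.1 and 9.84 in UV−, and downstream reads 8.95 and 5.8 in UV+, against 0 and 0 in UV− (ratio change 2.42, unadjusted p 0.0071, limma). Both rows rest on fewer than 20 reads per library downstream, and both UV− groups were at 0 there. LOC101928100 therefore also met the read minimum downstream only in UV+.

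PSMD5-AS1 had 17.1 and 14.5 normalized reads upstream in UV+, against 13.9 and 15.6 in UV−, and 7.32 and 13.5 downstream in UV+, against 1.39 and 0.82 in UV− (ratio change 2.31, unadjusted p 0.015, limma). Downstream, PSMD5-AS1 met the read minimum only in UV+, the condition in which it was high there. HMGN3-AS1, UBE2Q1-AS1 and SDHAP1 had ratio changes of 2.53, 3.09 and 1.92. In UBE2Q1-AS1 and SDHAP1 the difference lay upstream, where reads were lower in UV+, while their downstream log2 fold changes were −0.01 and −0.02.

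LINC00324 had the largest fall of the ratio in limma, −3.33 ± 0.74 (unadjusted p 0.003), but this rests on 0 downstream reads in both UV− libraries. Its downstream reads were 9.76 and 2.90 in UV+, against 0 and 0 in UV−, beside the 70.7-fold difference upstream, and edgeR gave a ratio change of −0.29 (unadjusted p 0.57). CP, the coding gene of the copper carrier ceruloplasmin that the table lists as an NR row, had 230 and 247 upstream reads in UV+, against 303 and 250 in UV−. Downstream it had none in UV+, against 6.96 and 5.74 in UV− (ratio change −2.66 ± 0.65, unadjusted p 0.0047 in limma and 0.00089 in edgeR). LENG8-AS1 had 76.4 and 42.6 upstream in UV+, against 52.9 and 42.7 in UV−, and 5.69 and 0 downstream in UV+, against 19.5 and 13.9 in UV− (ratio change −3.02 ± 0.82, unadjusted p 0.0082, limma). CP and LENG8-AS1 met the read minimum downstream only in UV−, the condition in which they were high there. LOC642776, LOC100288842 and LINC01589 had ratio changes of −2.45, −2.16 and −1.99.

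**Figure D5:**
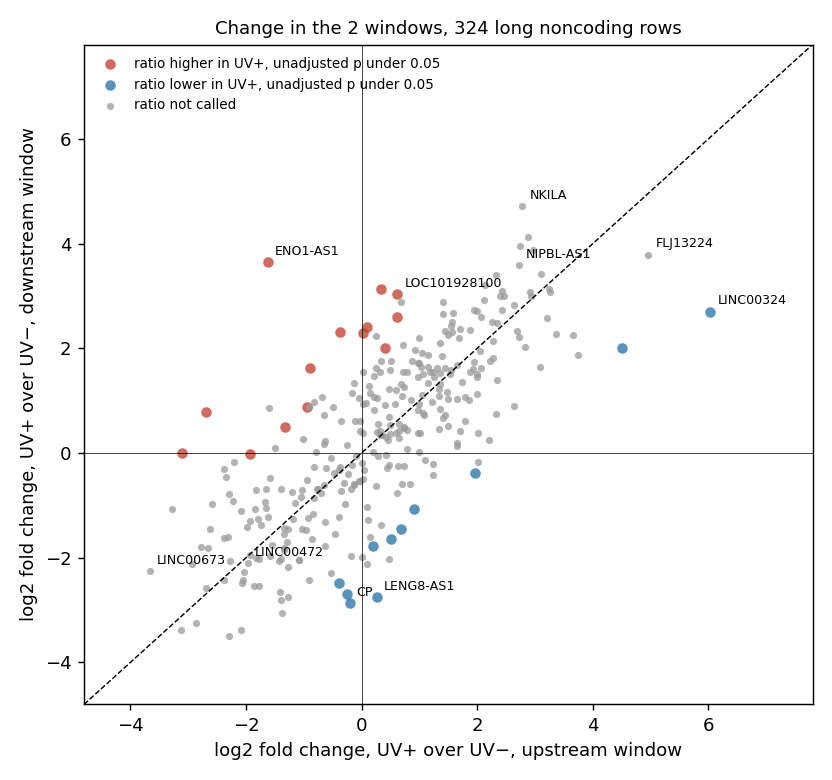
Log2 fold change, UV+ over UV−, in the downstream window (y axis) against that in the upstream window (x axis) for the 324 long noncoding rows, with the line of equal change dashed. Red and blue points are the 14 rows whose ratio was higher and the 11 whose ratio was lower in UV+ at an unadjusted p under 0.05, among them ENO1-AS1 (5.26) and LINC00324 (−3.33).

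None of the 12 snoRNA hosts of the SNHG and GAS5 class was called for the ratio in either direction, and the median change of their ratio was 0.19. Of all rows, 10.9% were called higher and 2.69% lower, so 0 of 12 does not set the hosts apart. Antisense RNAs were called higher in 7 and lower in 4 of 94 rows, LINC or LOC genes in 5 and 5 of 115, pseudogenes in 2 and 1 of 36, and the others in 0 and 1 of 67. The p53-linked RNAs that rose upstream had ratio changes of 0.81 ± 0.74 for LINC01021, 0.60 ± 0.87 for MIR22HG, 0.46 ± 0.82 for LINC00657 and −1.87 ± 0.86 for TP53TG1, none past an unadjusted p of 0.05 (limma). Over all long noncoding rows, the smallest ratio changes that passed an unadjusted p of 0.05 were 1.60 and −1.96.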

How the data were processed

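Nuclear, ribosomal RNA-depleted RNA of 4 A549 libraries (2 UV+, 2 UV−) had been sequenced as single-end reads of 100 nt. Per the study's methods, the authors used cutadapt for trimming and TopHat2 for alignment (hg19), kept reads of mapping quality 20 or more and counted them with featureCounts (R 3.4.0) in 500-nt windows before and after the PAS, leaving out genes whose downstream window overlapped another gene and requiring at least 10 reads in both windows. The deposited signal values are the authors' counts divided by a size factor per library. Whole reads were recovered for 100% of values (tolerance 1e-06 reads), so depth is known and p-values cover the spread between 2 libraries per condition. Columns with the authors' own fold changes, Wald statistics and p-values were not used, and 0 columns of single samples were left out. In all, 3 rows with shifted cells had no accession class.

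Log2 values with a pseudocount of 1 were fitted for all 4208 rows with limma 3.58.1 (eBayes with a variance trend, R 4.3.3), and p-values were Benjamini-Hochberg adjusted over all rows. The log2 downstream value minus the log2 upstream value per library gave the ratio. Fold changes on this scale understate those of low rows. edgeR 4.0.16, DESeq2 1.42.0 (both on the recovered reads), TMM factors, other pseudocounts, a minimum mean of 10, a replicate block, limma without a trend, each library left out, rows of at least 1000 nt only and rows without coding symbols only were the alternatives. The code was tested on simulated data. Named rows were the 8 (upstream), 6 (downstream) and 6 (ratio) smallest p-values in each direction with a mean of at least 10 and conditions that did not overlap, the 3 smallest upstream p-values per class and direction and the 2 most abundant of each class, the members of the 3 RNA lists, and any row with an adjusted p under 0.05 for the ratio; exceptions are said in the text, and 1 row that the rule names is not reported here. The long noncoding rows and the lists were chosen with earlier results of these data known. Positions were read with GENCODE 44 on GRCh37, and 317 of 324 symbols had a RefSeq entry, of which 25 are now coding.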

Additional observations from a re-analysis of the deposited data

How the results depend on the processing

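Upstream calls (58 higher, 32 lower in UV+) became 35 and 9 in DESeq2 and 38 higher in limma without the trend, and leaving out 1 library gave 1 to 43 higher and 0 to 38 lower. Downstream calls (55 and 19) became 23 and 6 in DESeq2 and 29 and 8 without the trend, 32 were lower with the replicate block, and leaving out 1 library gave 1 to 12 higher and 0 to 7 lower. Unadjusted ratio calls (14 and 11) became 5 and 2 with a minimum mean of 10, which left 106 rows, 8 and 5 in edgeR and 6 and 4 in DESeq2, and leaving out 1 library gave 10 to 26 higher and 6 to 37 lower. Adjusted ratio calls (0 and 0 in limma, beside the unadjusted 14 and 11) became 1 higher (ENO1-AS1) and 1 lower (LINC00324) with a pseudocount of 5, and 1 lower (CP) among the 62 rows DESeq2 adjusted; edgeR and a variance trend on the downstream level, chosen after seeing the data, called none. Causes were not tested. The ratio change of ZNF724P, 0.11 in limma with all libraries, lay between −1.75 and 1.97 with 1 library left out. Leaving out a UV− library leaves 1 sample in that condition, assumed to vary like the other. Libraries of the same replicate number did not deviate together (correlations 0.0004 upstream, 0.026 downstream and 0.032 for the ratio), so the numbers were not used as pairs; with the block, 57 of 58 and 30 of 32 upstream calls remained. TMM factors, edgeR and other pseudocounts kept the upstream and downstream counts within 1.5 times (edgeR on the recovered reads called 64 and 30 upstream), as did rows of at least 1000 nt and rows without coding symbols for all comparisons. Among named rows, 1944 of the alternative values stayed as in the main fit, called or not called, 353 lost a call, 60 gained one and 1 turned round. The 1944 include values not called in either fit, so they do not give the share of calls that held. The median row had 7.5 to 14 upstream reads per library.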

Other observations

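Factors of nuclear RNA decay and nonsense-mediated decay, from a list of 31 symbols of which 14 had rows, were looked at because many of the RNAs above are their substrates. Upstream, 1 of the 14 rose, 2 fell and 11 did not pass (limma, adjusted p), against 11.7% of all rows called higher and 20.7% lower. The median log2 fold change of the list was 0.25, against −0.24 over all rows. EXOSC8, a subunit of the RNA exosome, had 8.94 and 5.8 normalized upstream reads in UV+, against 30.6 and 36.9 in UV− (−2.07, adjusted p 0.008, limma), and UPF3B, a factor of nonsense-mediated decay, had 13.8 and 8.71 in UV+, against 36.2 and 45.1 in UV− (−1.79, adjusted p 0.0096, limma). EXOSC4, another exosome subunit, had 59.4 and 38.7 in UV+, against 13.9 and 19.7 in UV− (1.48, adjusted p 0.015, limma). EXOSC7, whose row is listed as noncoding, had 17.1 and 7.74 in UV+, against 1.39 and 5.74 in UV−, and did not pass (adjusted p 0.12, limma). For UPF3B and EXOSC8 both UV+ libraries were below both UV− libraries, and for EXOSC4 both were above. Such separation, in either direction, was found upstream in 69.4% of all rows.

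Of 5 rows with the symbol of a microRNA host (MIR, a number and HG), 3 were higher in UV+ upstream, 1 was lower and 1, MIR31HG, did not pass. Of all rows, 11.7% were called higher and 20.7% lower. This set was drawn up after its values were seen. MIR22HG is described above. MIR17HG, the host of the oncogenic miR-17 cluster, had 92.7 and 77.4 normalized reads in UV+, against 39.0 and 41.0 in UV− (log2 fold change 1.06, adjusted p 0.015, limma). MIR4458HG had 33.3 and 42.6 in UV+, against 1.39 and 4.92 in UV− (3.36, adjusted p 0.0016, limma). MIR100HG, a host of 113960 nt, was lower, with 7.32 and 0 in UV+, against 18.1 and 14.8 in UV− (−2.59, adjusted p 0.046, limma). MIR4458HG met the read minimum upstream only in UV+ and MIR100HG only in UV−, in each case the condition in which it was high.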
